A study of Homo sapiens with 10 samples.

Results

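The lysyl oxidase family was followed through RNA sequencing of 2 glioblastoma cell lines in which the homeobox transcription factor MEOX2 had been lowered or raised. The family has 5 genes, LOX, LOXL1, LOXL2, LOXL3 and LOXL4, and all 5 are among the 34567 gene rows of the expression table. The family was chosen by the level of LOXL1, which was lower in the perturbed libraries of both lines, so LOXL1's differences are given as a description, without a test. The other 4 members entered by family name.

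SNB19 cells, a line with MEOX2 of its own, received either a scrambled siRNA (Scramble, 3 libraries) or an siRNA against MEOX2 (siMEOX2, 3 libraries) with Lipofectamine 3000. U87 cells were infected with lentivirus in the presence of polybrene and carried either an empty vector (EV, 2 libraries) or a vector expressing Flag-tagged MEOX2 (OE, 2 libraries), and stable lines were selected with puromycin. All cells were grown in DMEM with 10% fetal bovine serum. Both are long-passaged lines grown as monocultures, the siRNA effect is transient, and the U87 transgene is driven by the vector and not by the gene's own promoter. The labels do not say whether the libraries of a group came from separate cultures, so p-values measure the spread between these libraries only, which may be technical.

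Lysyl oxidases are copper-dependent amine oxidases, most of them secreted, that convert lysine side chains of collagen and elastin into aldehydes. These aldehydes then condense into covalent crosslinks, which stiffen collagen fibrils and make elastic fibres insoluble. LOX and LOXL1 are made as proenzymes with an N-terminal propeptide that is cut off outside the cell, whereas LOXL2, LOXL3 and LOXL4 carry scavenger receptor cysteine-rich domains in that place. In solid tumours the family is known for matrix stiffening and for its link to low oxygen, as LOX and LOXL2 are established hypoxia target genes.

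All members share the catalytic domain, and its copper-binding stretch shows how alike they are. The reference coding bases of that stretch, from the GENCODE 29 transcripts on GRCh38, are shown 5′ to 3′ on the coding strand, with the 4 histidine codons in capitals. In each of the transcripts below, the stretch spans an exon junction, so the genomic interval includes an intron. For LOX it covers residues 286 to 296 (chr5:122074160-122075426, minus strand, exons 3 and 4), for LOXL1 residues 443 to 453 (chr15:73946532-73947076, plus strand, exons 3 and 4), for LOXL3 residues 601 to 611 (chr2:74534422-74534553, minus strand, exons 10 and 11) and for LOXL4 residues 605 to 615 (chr10:98252459-98253575, minus strand, exons 11 and 12).
LOX: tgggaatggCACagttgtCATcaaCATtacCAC
LOXL1: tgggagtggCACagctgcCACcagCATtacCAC
LOXL3: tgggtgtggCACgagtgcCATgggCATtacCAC
LOXL4: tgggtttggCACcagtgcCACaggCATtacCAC
LOX and LOXL1 had 28 of the 33 bases in common, and LOXL3 and LOXL4 had 29. LOX and LOXL4 had 23 in common. Even so, the longest run of identical bases between any transcripts of 2 members was 26 bases, for LOXL3 and LOXL4, against a read length of 150 bases. Reads of this length can be told apart between members.

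Each library held between 12533775 and 16560324 counted reads. MEOX2 itself followed the labels. It had 224 to 275 reads in the Scramble libraries and 40 to 54 in the siMEOX2 libraries, a fold of 0.188 (edgeR quasi-likelihood test, adjusted p = 1.082e-11). In U87 it had 0 reads in both EV libraries and 4999 and 5308 in the OE libraries, which is at least 1784-fold higher against a floor of 3 reads per library. One library stood apart, EV replicate 1. Its TMM scaling factor was 0.69, against 0.95 for EV replicate 2 and 0.96 and 0.95 for the OE libraries. The rank correlation of the EV pair over genes was 0.929, against at least 0.9948 within the other groups, and EV replicate 1 held more reads from short genes. Genes of 200 to under 1000 exon bases were 1.30 log2 units higher in EV replicate 1 than in EV replicate 2 at the median, and genes of 6000 bases and over were 0.58 log2 units lower (-0.5766), while the OE replicates differed by -0.12 to 0.05 over the same length classes. For this reason the members' U87 differences are given with both EV libraries and also with EV replicate 2 alone.

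**Figure D1:**
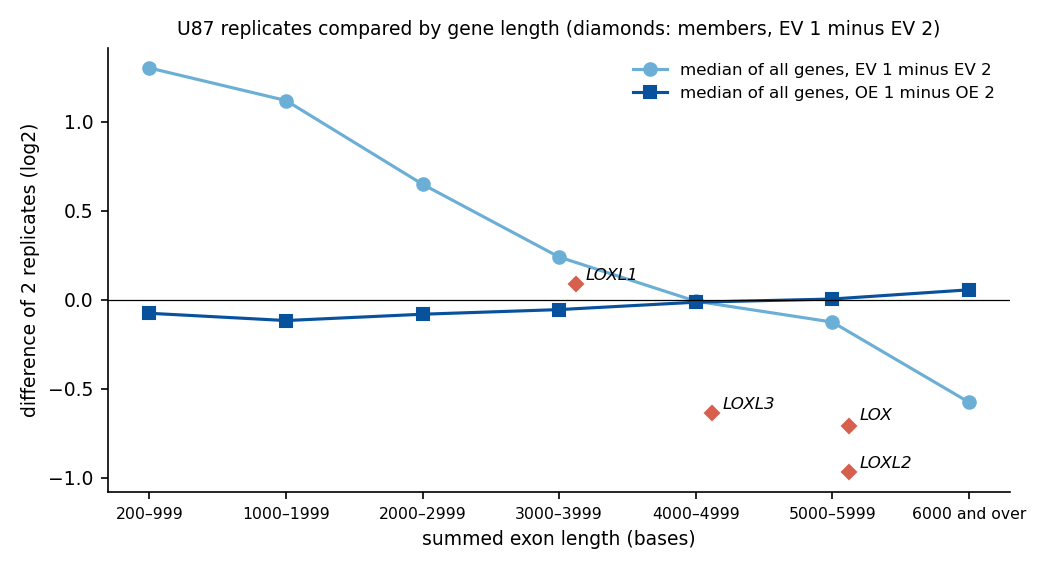
Difference between the 2 replicates of a U87 group (log2 CPM after TMM scaling, vertical axis) by summed exon length in bases (horizontal axis), as the median of all genes for EV (circles) and OE (squares). Diamonds are LOX, LOXL1, LOXL2 and LOXL3, EV replicate 1 minus EV replicate 2. The EV line falls from 1.30 in the shortest class to -0.58 in the longest, the OE line stays near 0, and LOXL2, at -0.97, is the lowest of the 4 members drawn. LOXL4 (-1.56) is not drawn because it rests on 1 and 7 reads.

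Marker genes were read in FPKM, which scales reads to exon length and to the library's total. Of the 3 markers of mesenchymal glioma lines, VIM was at 160.2 to 163 in Scramble and 240.6 to 687.2 in EV, and all 3 were above 1 FPKM in both control groups. The 3 summed to 198.9 to 201.4 in Scramble, 100.1 to 104.4 in siMEOX2, 317.7 to 748.4 in EV and 185 to 186.8 in OE, and NES, an intermediate filament gene, went from 2.509 to 3.04 in EV to 0.1866 to 0.2212 in OE. The astrocyte markers GFAP, S100B and AQP4 stayed below 0.4 FPKM in every library, and S100B and AQP4 were at 0 in all U87 libraries, so the glial label of these lines is not carried by those genes. The 4 astrocyte genes summed to 16.88 to 18.01 in Scramble, 12.37 to 14.63 in siMEOX2, 3.03 to 8.034 in EV and 3.755 to 3.844 in OE, nearly all of it SLC1A3. Among markers of cells that should be absent, PTPRC (leukocytes) did not exceed 0.02778, and MOG (oligodendrocytes) did not exceed 0.06533. The summed levels of 3 further lists moved with the groups. The 3 leukocyte genes summed to 3.59 to 4.085 in Scramble and 0.9728 to 1.441 in siMEOX2, nearly all of it CSF1R. The 3 endothelial genes summed to 5.105 to 5.683 and 0.784 to 1.174, most of it PECAM1, and the 3 epithelial genes to 4.791 to 5.248 and 1.929 to 2.845, most of it CLDN4. The corresponding EV and OE ranges were 2.415 to 3.232 and 0.4802 to 0.618 for leukocyte genes, 0.7197 to 0.8967 and 0.1896 to 0.293 for endothelial genes, and 1.418 to 1.429 and 0.5995 to 0.6587 for epithelial genes. Fibroblast genes summed to 5.542 to 6 in Scramble, 5.006 to 5.431 in siMEOX2, 4.513 to 7.602 in EV and 2.506 to 2.833 in OE, neuronal genes to between 1.598 and 4.432 in all groups, and oligodendrocyte genes to at most 0.6107. The part of these genes in the members' differences was not tested.

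In unperturbed SNB19 cells LOXL1 was the main member. Its FPKM was 63.51, 67.58 and 65.77 in the Scramble libraries, a mean of 65.62 ± 2.04 (SD, n = 3), which placed it 545th of the 29414 genes with a value above 0. LOXL2 followed at 20.49 ± 0.13 (SD, n = 3). LOXL4 was at 7.17 ± 0.24, LOX at 4.91 ± 0.14 and LOXL3 at 1.06 ± 0.05 (SD, n = 3 each). No neighbours in this order overlapped between libraries. Summed over the family, FPKM was 99.25 ± 1.87 (SD, n = 3), and LOXL1 made up 66.11% of it.

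U87 cells with the empty vector had another profile. LOXL2 was at 22.82 and 61.26 FPKM in the EV libraries and LOXL1 at 28.16 and 36.34, so the order of these members differed between the replicates. LOX came next at 8.758 and 19.65, then LOXL3 at 3.22 and 6.88. LOXL4 was nearly silent at 0.01694 and 0.1363 FPKM, which rest on 1 and 7 reads.

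Set against each other, the control libraries of the lines differed in LOX, LOXL2 and LOXL3, though LOXL2's call was lost in some alternatives. LOX was lower in SNB19 than in U87 (log2 -1.84, SE 0.25, fold 0.28, edgeR adjusted p = 0.004887). LOXL2 was lower too (log2 -1.32, SE 0.31, adjusted p = 0.02485), as was LOXL3 (log2 -2.56, SE 0.25, adjusted p = 0.001891). LOXL4 was higher in SNB19, with 1202 reads in the 3 Scramble libraries and 8 in the 2 EV libraries, a ratio of 99.12 with a 95% counting interval of 50.14 to 230.1. That interval pools the EV libraries, and the fitted fold of 75.47 was 46.59 with EV replicate 2 alone and 260.1 with EV replicate 1 alone. LOXL4 passed the filter on low counts through SNB19 alone, so its call gives no support of its own. LOXL1 was 1.58-fold higher in SNB19 (log2 0.66, no test), and 0.70 log2 units higher with EV replicate 2 alone. In this comparison 39.8% of all tested genes were called, 20.7% higher and 19.1% lower in SNB19, and these were different lines with different vectors and reagents, which cannot be told apart. With EV replicate 2 alone the differences were -2.16 for LOX, -1.74 for LOXL2 and -2.86 for LOXL3. That arm then holds 1 library, which is assumed to vary as the Scramble libraries do, so these are given as values. LOXL2's call was lost with library totals in place of TMM scaling (-1.04, edgeR adjusted p = 0.1158) and with limma on log2(FPKM + 1). Without any 1 Scramble library it was lost too (-1.31, edgeR adjusted p from 0.1085 to 0.1091).

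**Figure D2:**
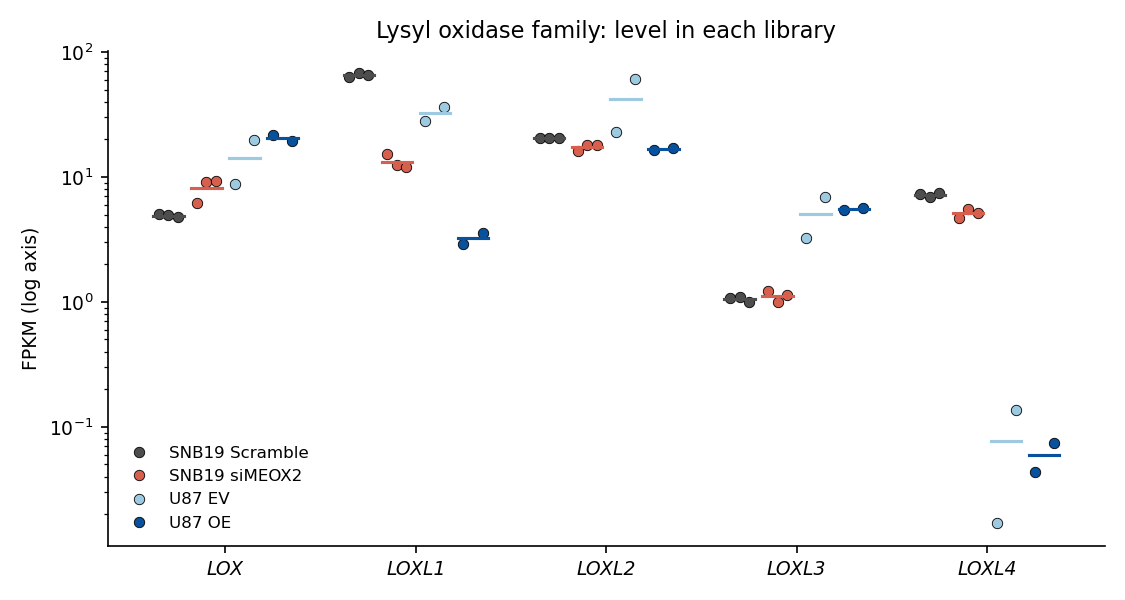
FPKM (log axis) of the 5 members in each of the 10 libraries, with a line at each group's mean, for 3 Scramble, 3 siMEOX2, 2 EV and 2 OE libraries. LOXL1 lies at 63.51 to 67.58 in Scramble and 12.06 to 15.18 in siMEOX2, and at 28.16 and 36.34 in EV and 2.918 and 3.569 in OE.

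After MEOX2 depletion in SNB19, LOX was higher and LOXL2 and LOXL4 were lower, while no change of LOXL3 was detected. LOXL1, by which the family was chosen, had the largest difference of the 5. Of the 4 tested members, 1 rose and 2 fell, and 56% of the 15525 genes tested in this line were called, 27.4% higher and 28.5% lower. Nothing particular to the family is read from these counts.

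LOXL1, which is known for elastin crosslinking, was at 63.51, 67.58 and 65.77 FPKM in Scramble and at 15.18, 12.44 and 12.06 in siMEOX2. The groups did not overlap, and the siMEOX2 mean was 13.23 ± 1.70 (SD, n = 3). The fitted log2 difference was -2.38, a fold of 0.192. In bulk RNA, fewer expressing cells and less RNA per cell cannot be told apart, here as in the results below. Its rank among all genes by FPKM went from 545 to 3687 of 29638.

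LOX, the founding collagen and elastin crosslinker, was at 5.04, 4.928 and 4.762 FPKM in Scramble and at 6.198, 9.134 and 9.301 in siMEOX2. All siMEOX2 libraries lay above all Scramble libraries, and siMEOX2 replicate 1 lay below its group's other libraries. LOX rose 1.58-fold (log2 0.66, SE 0.11, edgeR adjusted p = 2.925e-05).

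LOXL2, which acts on collagen IV of basement membranes, was at 20.39, 20.44 and 20.64 FPKM in Scramble and at 16.23, 17.88 and 17.88 in siMEOX2. The change was small and the replicates were tight. LOXL2 fell to a fold of 0.80 (log2 -0.32, SE 0.055, edgeR adjusted p = 5.075e-05).

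LOXL4, a scavenger receptor-type member, was at 7.24, 6.904 and 7.372 FPKM in Scramble and at 4.706, 5.506 and 5.109 in siMEOX2. The groups did not overlap. LOXL4 fell to a fold of 0.675 (log2 -0.57, SE 0.09, edgeR adjusted p = 1.656e-05).

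LOXL3, another scavenger receptor-type member, was at 1.066, 1.103 and 1.004 FPKM in Scramble and at 1.211, 1.005 and 1.139 in siMEOX2. These ranges overlapped. The log2 difference was 0.009 (SE 0.17, adjusted p = 0.9675), and 2 SE on either side reached from -0.33 to 0.35. When all 10 libraries shared 1 estimate of spread, the calls of LOX, LOXL2 and LOXL4 were lost (adjusted p = 0.06603, 0.3383 and 0.09151) with the log2 differences nearly as before (0.65, -0.33 and -0.58).

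In U87, MEOX2 overexpression went with lower LOXL1 as well, although MEOX2 was moved in the opposite direction from SNB19. LOXL2 was lower in value, and LOX and LOXL3 overlapped between the groups. No gene of the 14180 tested passed an adjusted p of 0.05 in edgeR (0% called, against 2503 at an unadjusted p under 0.05), and the smallest adjusted p of any gene was 0.1413, which MEOX2 also had. DESeq2 called 935 genes. With EV replicate 2 alone against both OE libraries, where EV is assumed to vary as the OE pair does, 47.4% of 14875 genes were called.

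LOXL1 was at 28.16 and 36.34 FPKM in EV and at 2.918 and 3.569 in OE. Both OE libraries lay below both EV libraries. The log2 difference was -3.55, a fold of 0.0856, and it was -3.49 with EV replicate 2 alone and -3.55 with EV replicate 1 alone. The rank of LOXL1 went from 1454 of 22868 genes to 8317 of 25365.

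LOXL2 was at 22.82 and 61.26 FPKM in EV and at 16.55 and 16.91 in OE. Both OE libraries were lower than either EV library, but the EV libraries differed from each other by more than OE differed from the lower of them. The log2 difference was -1.48 (SE 0.42, edgeR adjusted p = 0.2324), not past the threshold. It was -1.88 with EV replicate 2 alone and -0.89 with EV replicate 1 alone. With 1 EV library the spread comes from the OE pair, so these are given as values, here and below.

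LOX was at 8.758 and 19.65 FPKM in EV and at 21.46 and 19.35 in OE. EV replicate 2 lay within the OE range and EV replicate 1 lay below it. The log2 difference of 0.35 (SE 0.35, edgeR adjusted p = 0.5884) had a range of 2 SE from -0.35 to 1.05. It was 0.04 with EV replicate 2 alone and 0.77 with EV replicate 1 alone, so the value of LOX in U87 rests on which EV library is used.

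LOXL3 was at 3.22 and 6.88 FPKM in EV and at 5.449 and 5.653 in OE, with both OE values between the EV values. Its log2 difference was -0.04 (SE 0.33, edgeR adjusted p = 0.9455). The direction turned with the EV library, from -0.32 with EV replicate 2 alone to 0.34 with EV replicate 1 alone. LOXL4 had 1 and 7 reads in EV and 2 and 4 in OE, too few for the filter, and the ratio of 0.834 had a 95% counting interval of 0.2385 to 2.741. A difference in LOXL4 was not detectable at this depth.

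**Figure D3:**
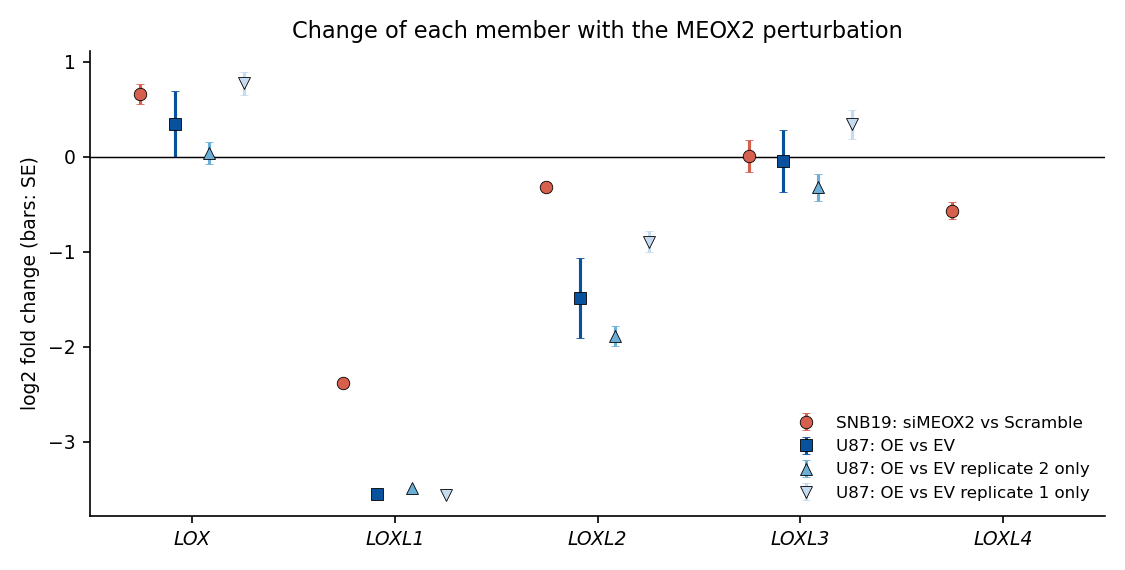
Log2 fold change of each member (vertical axis, bars are SE) for siMEOX2 against Scramble in SNB19 and for OE against EV in U87, the latter with both EV libraries and with each alone. LOXL1 has no error bars because it was not tested, and LOXL4 in U87 is not drawn because of its few reads. LOXL1 lies at -2.38 in SNB19 and between -3.55 and -3.49 in U87, while LOX and LOXL3 in U87 shift with the EV library.

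The lines were also compared directly, as the log2 change from low to high MEOX2 in U87 (OE minus EV) less that in SNB19 (Scramble minus siMEOX2). In this comparison, where all 10 libraries shared 1 estimate of spread per gene, 23.8% of 17312 genes were called. The values of LOXL2 went in opposite directions, higher with more MEOX2 in SNB19 and lower with more MEOX2 in U87, a difference of -1.805 (SE 0.33, edgeR adjusted p = 0.005193), and of -2.16 with EV replicate 2 alone. For LOX the difference of 1.01 (SE 0.32, adjusted p = 0.05121) just missed the threshold, and with EV replicate 2 alone it was 0.74. No difference was called for LOXL3 (-0.04, adjusted p = 0.9615, and -0.27 with EV replicate 2 alone). LOXL4 passed the filter here through SNB19 alone. With its few reads in U87 its value ran from -1.69 with EV replicate 2 alone to 0.76 with EV replicate 1 alone, so no difference was detectable for it.

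The family's summed level and the members' shares of it were set side by side as a description, since LOXL1, by which the family was chosen, fixes the fall of its own share and with it a rise of the others' shares together. In SNB19 the summed FPKM was 99.25 ± 1.87 in Scramble and 44.99 ± 1.29 in siMEOX2 (SD, n = 3 each), and LOXL1's share went from 66.11% to 29.48%. LOXL2 had the largest share there, 38.5%, at a lower FPKM than in Scramble (17.33 against 20.49), and LOX went from 4.949% to 18.19%. In U87 the summed FPKM was 62.97 and 124.3 in EV and 45.99 ± 0.61 in OE (SD, n = 2). LOXL1 was 44.72% and 29.24% of it in the EV libraries and 7.059% at the mean of OE, where LOX led with 44.35%. LOXL3 held 12.07% in OE and LOXL4 0.1291%.

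**Figure D4:**
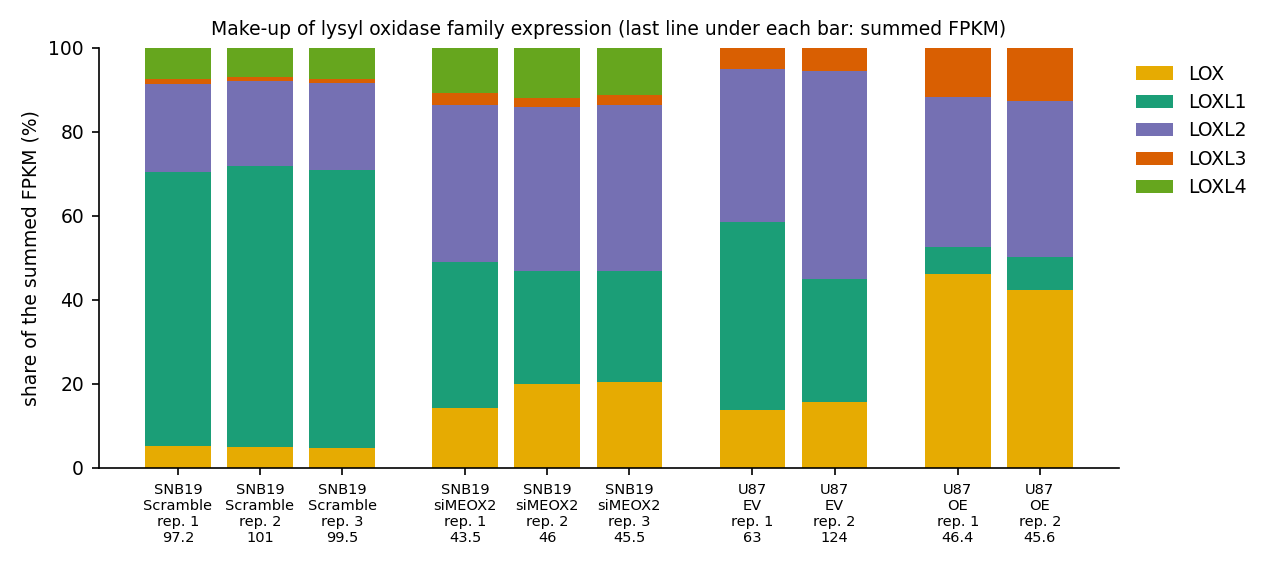
Share of each member in the family's summed FPKM (vertical axis, %) in each of the 10 libraries, with the summed FPKM written under each bar. LOXL1 takes 66.11% at the mean of Scramble and 29.48% at that of siMEOX2, and LOX has the largest share, 44.35% at the mean, in OE.

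LOXL1 shares its locus with an antisense gene. In GENCODE 29 on GRCh38, LOXL1 spans chr15:73925989-73952137 on the plus strand, and LOXL1-AS1 spans chr15:73908071-73928248 on the minus strand. Their exons have 335 bases in common, 9.21% of LOXL1's exon bases. The library kit does not mark strand, so reads from those bases cannot be assigned to a strand. LOXL1-AS1 was at 9.628, 11.21 and 11.34 FPKM in Scramble, 4.359, 4.452 and 4.439 in siMEOX2, 7.962 and 8.578 in EV, and 3.478 and 3.901 in OE. It was lower in the same libraries as LOXL1, by less: its fold was 0.39 in SNB19 and 0.37 in U87. As a share of LOXL1 reads, LOXL1-AS1 reads went from 17.59% to 20.01% in Scramble to 33.33% to 42.72% in siMEOX2, and from 27.4% to 32.81% in EV to 126.8% to 138.3% in OE. With the reads of both genes summed, the log2 difference was -2.16 in SNB19 and -2.72 in U87.

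Each of the other members lies on a chromosome of its own and also shares exon bases with neighbours. LOX spans chr5:122063195-122078360 (minus strand) and shares 2.49% of its exon bases with SRFBP1. LOXL2 spans chr8:23297189-23425328 (minus strand) and shares 3.12% with AC090197.1 and 2.10% with ENTPD4. LOXL3 spans chr2:74532414-74555690 (minus strand) and shares 14.33% with HTRA2 and 4.95% with DOK1; this overlap with HTRA2 was the largest of the 5 members. LOXL4 spans chr10:98247690-98268250 (minus strand) and shares 4.16% with AL139241.1.

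MEOX2 is a homeodomain protein, and homeodomains bind DNA around a TAAT core. The 250 bases before each RefSeq start site (GRCh38.p14) were searched for TAAT on both strands, and TAATTA, which contains it, was searched too. TAAT was found in 47.44% of all 35116 such windows and TAATTA in 4.346%. The LOXL1 window (chr15:73926212-73926461) held no TAAT and had a GC content of 66.8%, against a median of 58% over all windows. The windows of the 3 LOX start sites held 2, 1 and 0 matches to TAAT, the most upstream of them (chr5:122078260-122078509) 2. The LOXL4 window and both LOXL3 windows held none, and no window of these 4 genes held TAATTA. These are matches of letters in short windows, and binding was not measured here. The RefSeq start sites differ from the starts of the GENCODE spans given above. The LOXL1 window lies wholly inside the GENCODE spans of LOXL1, which starts at 73925989, and of LOXL1-AS1. Both LOXL3 windows lie wholly inside LOXL3, whose minus-strand span begins at 74555690. Bases before the GENCODE starts of LOXL1 and LOXL3 were not searched for these genes. The LOX and LOXL4 windows lie partly or wholly inside their own spans.

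The wider pathway was read in SNB19 from 9 gene lists, with 56% of all genes called as the background. Of the genes that process lysyl oxidases or hold them in the matrix, 1 rose and 4 fell of 7 tested, with a median log2 change of -0.70 against 0.006 over all genes. BMP1, the protease that cuts the propeptide of LOX, fell from 19.95 to 20.83 FPKM in Scramble to 6.381 to 7.01 in siMEOX2 (log2 -1.66, SE 0.059, edgeR adjusted p = 5.408e-15). The related protease TLL2 fell by 1.16 on the log2 scale. FN1, the gene of fibronectin, which binds LOX in the matrix, fell by 1.43 on the log2 scale, from a mean of 55.45 to 21.75 FPKM.

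Of the genes of copper handling, 2 rose and 2 fell of 6 tested, with a median of -0.12. The copper importer SLC31A1 rose by 0.70 on the log2 scale and the mitochondrial copper chaperone SCO1 by 0.32. ATP7A, the pump that loads copper onto secreted enzymes such as lysyl oxidases, fell by 0.31 on the log2 scale, from a mean of 3.202 to 2.735 FPKM.

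Elastin and collagens are what the enzymes act on, and the elastic fibre list also holds microfibril and other associated genes. ELN, the elastin gene, was at a mean of 0.077 FPKM in Scramble and 0.12 in siMEOX2 (edgeR adjusted p = 0.3394). Of the elastic fibre genes, 1 rose and 6 fell of 12 tested, with a median of -0.56. FBLN1 fell by 0.94 and LTBP3 by 1.04 on the log2 scale, while FBN2, a microfibril gene, rose by 0.99 from a low level of 0.1182 to 0.246 FPKM. Of the collagen substrates, 1 rose and 3 fell of 6 tested, with a median of -0.33. The fibrillar collagen gene COL1A1 rose by 0.46 on the log2 scale, COL5A1 fell by 0.78 and the basement membrane gene COL4A2 fell by 0.38.

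Of the enzymes that modify collagen in the endoplasmic reticulum, 2 rose and 8 fell of 15 tested, with a median of -0.14. The prolyl hydroxylase gene P4HA1 rose by 0.50 on the log2 scale and the collagen galactosyltransferase gene COLGALT2 by 0.86, whereas P3H3 fell by 0.62. Among other matrix crosslinkers and amine oxidases, 2 of 4 fell and none of them rose, with a median of -0.42. These were TGM2, which crosslinks through glutamine (-0.47), and PXDN, which crosslinks collagen IV (-0.36).

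Of the hypoxia list, which holds established low-oxygen targets and transcription factor genes of that response, 13 rose and 1 fell of 15 tested. The median was 0.36. VEGFA, the vascular growth factor gene, rose 3.03-fold (log2 1.60, SE 0.063, edgeR adjusted p = 2.252e-14) and NDRG1 rose 2.21-fold. CA12, a carbonic anhydrase gene, fell by 0.68 on the log2 scale. Of the TGF-beta genes, 3 rose and 5 fell of 13 tested, with a median of -0.12. CCN2 rose by 0.82 on the log2 scale, the receptor gene TGFBR2 fell by 0.76 and TGFBI fell by 1.06. Of the genes of mesenchymal transition, 1 rose and 5 fell of 7 tested, with a median of -0.44. VIM fell by 1.01 and ZEB2 by 0.90 on the log2 scale, and the epithelial cadherin gene CDH1 rose by 1.90 from 0.1776 to 0.7119 FPKM at the mean.

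**Figure D5:**
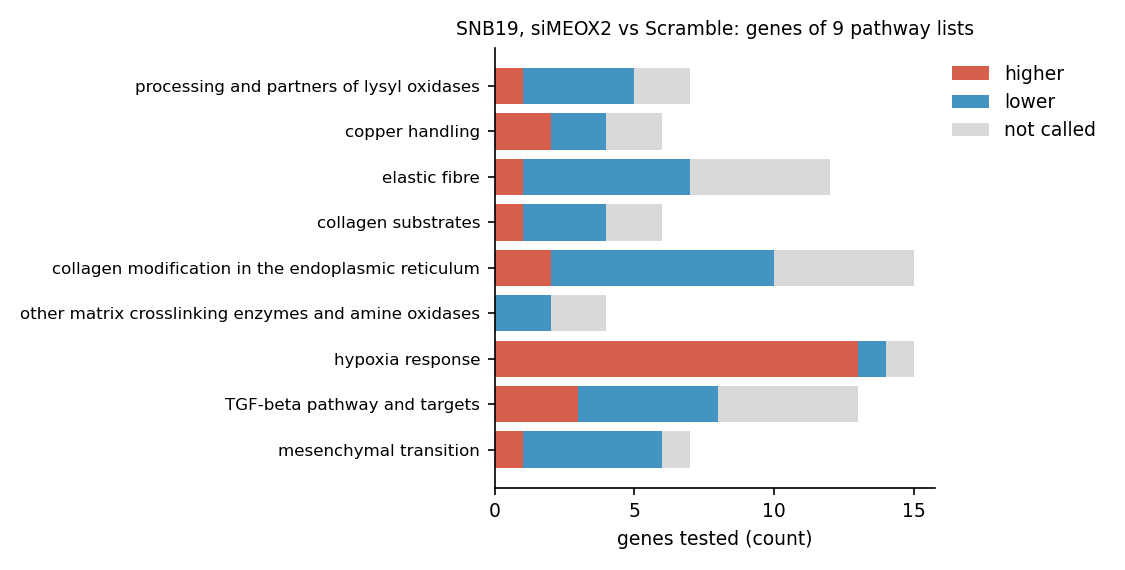
Number of tested genes (horizontal axis) in each of 9 pathway lists in SNB19 that were higher, lower or not called in siMEOX2 against Scramble (edgeR, adjusted p below 0.05). The hypoxia list has 13 of 15 genes higher, and the processing, elastic fibre, collagen modification and mesenchymal lists have more genes lower than higher.

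In U87 none of the genes on these lists was called with both EV libraries (edgeR, counts over all genes above). Medians of log2 change are given with both EV libraries and with EV replicate 2 alone, where EV is 1 library. Over all genes the median with EV replicate 2 alone was 0.014. The collagen substrates had the lowest median of log2 change, -2.24 against -0.057 over all genes. All 6 tested were below 0, and with EV replicate 2 alone the median was -2.64. COL1A1 was at a mean of 133 FPKM in EV and 14.2 in OE (log2 -3.39, adjusted p = 0.1568, and -3.74 with EV replicate 2 alone), so its value was lower with more MEOX2 in U87 as in SNB19, where depletion raised it. The medians were -0.94 for processing and partners, -0.57 for elastic fibre and -0.77 for collagen modification. With EV replicate 2 alone they were -0.87, -0.89 and -0.81. The hypoxia list had a median of -0.62 both ways. Copper handling (-0.02), TGF-beta (0.04) and mesenchymal transition (-0.01) had medians near 0. With EV replicate 2 alone these were -0.11, -0.05 and -0.31. The other crosslinkers had 3 genes tested, a median of 1.70, and with EV replicate 2 alone a median of 1.05. BMP1 was at a mean of 12.61 FPKM in EV and 6.538 in OE (log2 -1.19, adjusted p = 0.1916, and -1.11 with EV replicate 2 alone).

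Genes whose pattern over the 10 libraries was most like that of a member were found by Pearson's r of log2 CPM, centred within each line, among 9929 genes. The 10 points share libraries within 2 lines and are no independent samples, so r is a description. LOXL1 was most like ADGRG1, an adhesion receptor gene (r = 0.9985, fold 0.52 in SNB19 and 0.35 in U87), CD276 (r = 0.9981) and the integrin gene ITGA7 (r = 0.9972, fold 0.40 and 0.26). All these folds were nearer to 1 than those of LOXL1. LOX was most like ARHGEF2 (r = 0.993), PTPDC1 (r = 0.9707) and SCML1 (r = 0.9678). LOXL2 was most like CEP55 (r = 0.9965), SIDT2 (r = 0.994) and ATP8A1 (r = 0.9922), with U87 folds of 0.43, 0.56 and 0.20. LOXL3 had its nearest patterns in ERCC3 (r = 0.935), ANKRD13A (r = 0.9329) and CDCA4 (r = 0.9321), whose folds were 0.96 to 1.02 in both lines. EV replicate 1 differed from EV replicate 2 by -0.71 log2 units for LOX, -0.97 for LOXL2 and -0.64 for LOXL3. These differences enter r, and their part in it was not tested.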

How the data were processed

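The authors sequenced poly-A RNA (NEBNext Ultra RNA kit, paired reads of 150 bases) and deposited raw read counts per gene and FPKM, made per the submitters' processing notes with HISAT2 on GRCh38 and HTSeq 0.11.2. DESeq2 1.26.0 is named there too. The HTSeq strand setting is not given in the sources used here. The deposited FPKM equalled counts divided by exon length and by the table's total (largest coefficient of variation of the implied length 5.3e-09 over 10688 genes), so FPKM is scaled to all counted reads, without TMM scaling, and all 34567 gene IDs were found in GENCODE 29.

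Counts were tested with edgeR 4.0.16 (TMM, filterByExpr with a minimum count of 10, robust quasi-likelihood fit, Benjamini-Hochberg over all genes, adjusted p below 0.05), each line in its own fit, and the difference between lines in 1 fit of 10 libraries. SE is the log2 fold change divided by the root of F. DESeq2 1.42.0 and limma 3.58.1 were alternatives. The tests were tried on simulated data with the same spread in every library. No simulated library stood apart as EV replicate 1 does, so that trial does not speak for the U87 tests. Intervals and floors (3 reads) cover counting error only. Replicates were not merged, as no pair of libraries agreed within sampling noise.

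The members and lists were chosen with earlier results of these data known. The genes named are all members, MEOX2, LOXL1-AS1, ELN as the elastin gene, and genes taken by rule. From each list and perturbation these are up to 3 called genes with the largest change and no overlap between groups. For each member they are the 3 nearest patterns with at least 5 CPM in each line. In U87, list genes named in SNB19 are shown again, though none was called. Replicate numbers did not pair the SNB19 libraries (correlations of deviations 0.023, 0.0084 and 0.069). The U87 labels give the overexpressed gene under several names in turn, and MEOX2 was taken from the study's description. Both OE titles carry the same replicate label in brackets, so the replicate numbers were taken from the part before it.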

Additional observations from a re-analysis of the deposited data

Results flagged for a closer look

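LOXL2 was called as different between the lines in how it moved with MEOX2, in 1 fit of all 10 libraries. From low to high MEOX2 its log2 level was lower in U87 and higher in SNB19. The difference was -1.805 (SE 0.33, edgeR adjusted p = 0.005193, interaction term). That fit shares 1 estimate of spread per gene, so the wide EV pair is pooled with tighter groups. In such a shared fit LOXL2's U87 change had an adjusted p of 0.004656 and its SNB19 change 0.3383. With each line in its own fit they were 0.2324 and 5.075e-05. All OE libraries lay below all EV libraries, and all siMEOX2 libraries lay below all Scramble libraries, so LOXL2 was lower in the perturbed libraries of both lines. The U87 part rests on EV libraries at 22.82 and 61.26 FPKM, and without EV replicate 1 the difference was -2.16, without EV replicate 2 it was -1.20. LOXL2 has 5707 exon bases, and its level was -0.97 log2 units in EV replicate 1 against EV replicate 2. The median of genes of 5000 to under 6000 exon bases was -0.13. The part of gene length in this result was not tested.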

How the results depend on the processing

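With limits first: the EV pair sets what U87 can show, LOXL4 has too few reads there, and LOXL1-AS1 and HTRA2 overlap members. Genes called in SNB19 went from 8687 to 2622 with all 10 libraries in 1 fit. They were 1669 at the study's threshold, a fold above 2 and p below 0.05, with p taken here as unadjusted. At an adjusted p with a fold above 2 they were 1652. The study itself reported fewer genes at its threshold, in both lines. Library totals or upper quartile scaling turned the split of 4259 higher and 4428 lower to 5170 and 3690 or 5055 and 3790, and LOX, LOXL2 and LOXL4 kept their calls and direction. In U87 the count of 0 became 935 (DESeq2), 1863 (no filter), 4 (limma voom), 5 (limma on log2(FPKM + 1)), 4375 (all 10 libraries), 2094 (study's threshold) and 37 to 10616 with 1 library left out, 7052 of them without EV replicate 1 and 10616 without EV replicate 2. With the replicate block it was 484, and 8633 in SNB19. With 2 libraries a group, the U87 check has 1 value only (r = -0.19 for same-numbered libraries), which does not show a pairing, and a block with the numbers crossed gave 1167. Leaving out 1 library gave 3017 to 13693 calls between the control lines (main 6425, 3017 to 3041 without a Scramble library, 11991 without EV replicate 1) and 2129 to 10440 for the difference between lines (main 4112, 10440 without EV replicate 2).

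With all 10 libraries in 1 fit, LOX (0.6487), LOXL2 (-0.3312) and LOXL4 (-0.5799) in SNB19 lost their calls. In U87, LOXL2 was called with DESeq2 (-1.465, adjusted p = 0.04651), no filter (-1.467) and all 10 libraries (-1.474). Leaving out 1 library gave -1.884 to -0.8913 for LOXL2, 0.04144 to 0.7742 for LOX and -0.3202 to 0.3423 for LOXL3, which reversed without EV replicate 2 (0.3423). Between the control lines LOXL2 was -1.036 with library totals and -0.8417 with limma on FPKM, both not called, and -1.735 to -0.7278 with 1 library left out, not called without any 1 Scramble library. For the difference between lines LOX was called with DESeq2 (1.057), upper quartile (1.066), no filter (1.005) and limma voom (1.026), with 0.7392 to 1.448 on leaving out 1 library, and LOXL2 was not called with limma on FPKM (-1.349, adjusted p = 0.05375). With 2 libraries in each U87 group, its adjusted p over the alternatives ranged from 2.972e-05 (DESeq2) to 0.05375 (limma on FPKM). LOXL1 (no test) was -3.312 (library totals) and -2.963 (limma on FPKM) in U87, 1.026 and 1.013 between control lines, -5.621 and -5.197 for the difference between lines (main -5.931), and -2.161 in SNB19 and -2.715 in U87 with LOXL1-AS1 reads added. Library totals moved the median of all genes in U87 from -0.057 to 0.17 and between control lines from 0.017 to 0.37. The causes were not tested. Another 255 alternative values of these results were counted as unchanged. For counts of genes this meant within 1.5 times. For LOXL1 it meant the same direction and a shift under 1 SD of its log2 level. For the other members it meant the same side of the threshold, and a turned direction was let pass where neither value was called. LOXL3 was such a case, at -0.063 in SNB19 without siMEOX2 replicate 1 and 0.18 in U87 with limma on FPKM. FPKM over TMM-scaled library sizes moved 11 group means of members by more than 1 SD and 9 by less.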

Other observations

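LOXL1, LOXL1-AS1, TGFBI, FN1, BMP1 and VIM had lower values in the perturbed libraries of both lines, whether MEOX2 was lowered or raised. COL1A1 and NDRG1 instead had lower values with more MEOX2 in both lines: the log2 change after depletion in SNB19 was 0.46 and 1.14, and that after overexpression in U87 was -3.39 and -1.56. None of the U87 values was called in edgeR with both EV libraries, and these genes were picked out after their values were seen.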
